A study of Mus musculus with 19 samples.

Results

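This comparison set cultured microglia from APP transgenic mice against microglia from wild-type (WT) mice after both had been exposed to lipopolysaccharide (LPS). It took the libraries that the sample titles name as APP with LPS and as WT with LPS, 10 of the 19 libraries of the series, and every gene in their count tables. The APP LPS group (n = 5) came from C57BL/6 mice of the hAPPJ20 line (PDGFAPPSw,Ind), which carries human amyloid precursor protein with the Swedish and Indiana mutations under a platelet-derived growth factor promoter. The WT LPS group (n = 5) came from C57BL/6 mice without the transgene. In both groups the donors were 10 to 11 months old, and cortical microglia had spent 4 weeks in DMEM/F12 medium that held 10% serum and M-CSF, the macrophage growth factor, at 5 ng/mL. Both then received 100 ng/mL of LPS for 6 h and were left in fresh medium for 16 h before RNA was taken, so neither group was untreated. The labels do not say how many animals or cultures stand behind the libraries, so p-values measure the spread between libraries, part of which may be technical. Ddx3y, a Y-linked gene, exceeded 100 counts in 2 of 5 libraries of each group, so the libraries of a group did not all share a donor. The APP vehicle (n = 5) and WT vehicle (n = 4) libraries, from the same preparation with medium in place of LPS, entered only to estimate the spread and to set the genotype difference after LPS beside that without it.

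Microglia are the resident macrophages of the brain. LPS binds Toll-like receptor 4 on them and, through NF-kB and interferon regulatory factors, induces cytokines, chemokines and interferon-stimulated genes, while many genes of the resting state are reduced. In mice with amyloid deposits, microglia near plaques take up a disease-associated programme that depends on Trem2, a lipid-sensing receptor, and includes Apoe and lysosomal genes. In the hAPPJ20 line the promoter drives the human protein mainly in neurons, and plaques form with age.

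Each library held the 3′ ends of polyadenylated transcripts, with between 13065257 and 23165305 counts in APP LPS libraries and between 15270080 and 25610461 in WT LPS libraries. At these depths 3 counts, taken as the floor of detection, correspond to between 0.114 and 0.25 CPM (counts scaled to the size of the library), for counting error only. All 20 core macrophage markers were in the tables and none was at 0 in every LPS library. Markers of other cells were present too: 4 of 22 pericyte, smooth muscle and fibroblast markers, 7 of 14 neuron markers and 6 of 7 lymphocyte markers had a mean under 1 CPM. The libraries did not sort by genotype. On log2(CPM + 1) of the 6189 genes with a mean of at least 20 CPM, the first component held 30.9% of the variance and set APP LPS replicate 5 (score −48.1) and WT LPS replicate 5 (−35.2) apart from the other 8 libraries, which lay between −18.8 and 34.6. The second component held 21.6% and set APP LPS replicate 1 apart, at 55.3. For the median gene 3.9% of the variance lay between the genotypes.

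**Figure D1:**
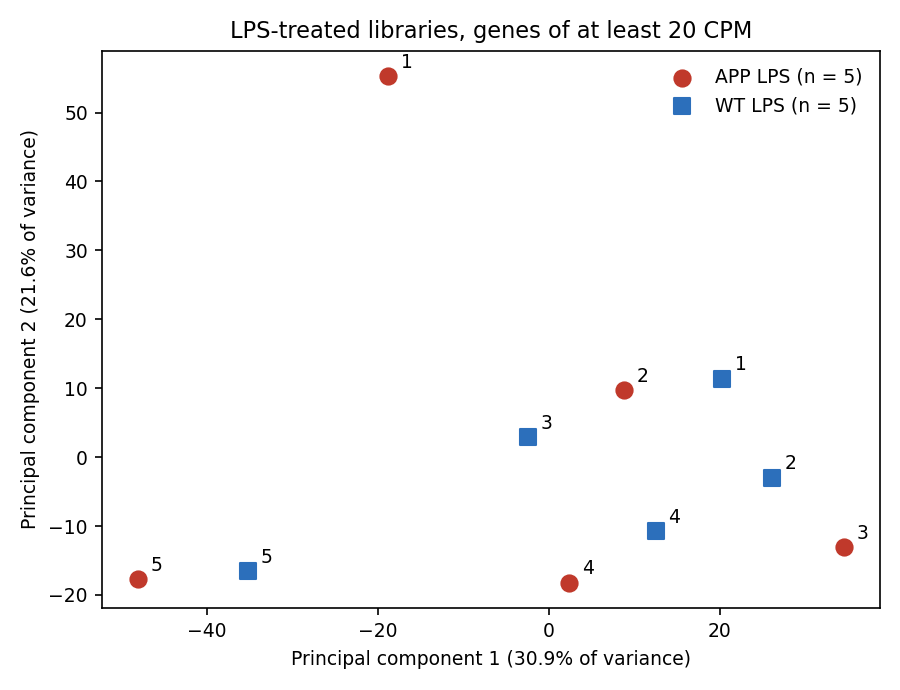
Principal components of the 10 LPS libraries on log2(CPM + 1) of genes with a mean of at least 20 CPM; each point is 1 library, labelled with its replicate number, circles APP LPS and squares WT LPS. The genotypes interleave, both replicates 5 lie at the left (−48.1 in APP LPS and −35.2 in WT LPS), and APP LPS replicate 1 lies alone at the top (55.3).

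No gene differed between APP LPS and WT LPS microglia by edgeR's quasi-likelihood test. Of 14113 genes tested 0 passed an adjusted p of 0.05 (0%), and the smallest adjusted p was 1. At an unadjusted p under 0.05 there were 482 genes (3.42%), 148 higher and 334 lower in APP LPS. DESeq2 on the same libraries called 94 genes, 27 higher and 67 lower, of which 92 had a mean under 20 CPM and 93 had no count in at least 1 of the 19 libraries. limma voom called 1 gene, Fcna (ficolin A, a lectin that starts complement activation).

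Genes measured well enough for a stable fold change were almost balanced. Those with a mean of at least 20 CPM over the 10 LPS libraries are called abundant here and the others sparse. Among 6188 abundant genes tested, 0 were called (0%), 96 had an unadjusted p under 0.05 (1.55%, with 43 higher, 0.695%, and 53 lower, 0.856%) and 3118 (50.4%) had a log2 difference above 0. Their median absolute log2 difference was 0.17, and for 90% of them it was at most 0.47. The 95% interval of the median abundant gene reached 0.64 to either side on the log2 scale. Only 29 abundant genes had a fitted difference beyond 1 on the log2 scale in either direction.

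Among 7925 sparse genes 386 had an unadjusted p under 0.05 (4.87%), 105 higher and 281 lower, with a median standard error of 1.33 against 0.31 for abundant genes. Tested genes at 0 in a whole group, all of them sparse, were uneven: 71 had no count in any APP LPS library with a WT LPS mean of at least 1 CPM, and 31 had the reverse pattern. The library totals of the APP LPS group were lower (median 20132783, against 24325524 counts in WT LPS). Genes with counts numbered 11161, 12355, 11595, 12690 and 13261 in APP LPS libraries, against 12239, 12778, 13360, 12624 and 14317 in WT LPS libraries. APP LPS replicate 1, the deepest library of its group at 23165305 counts, had the fewest genes with counts. The part of depth in this imbalance was not tested.

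**Figure D2:**
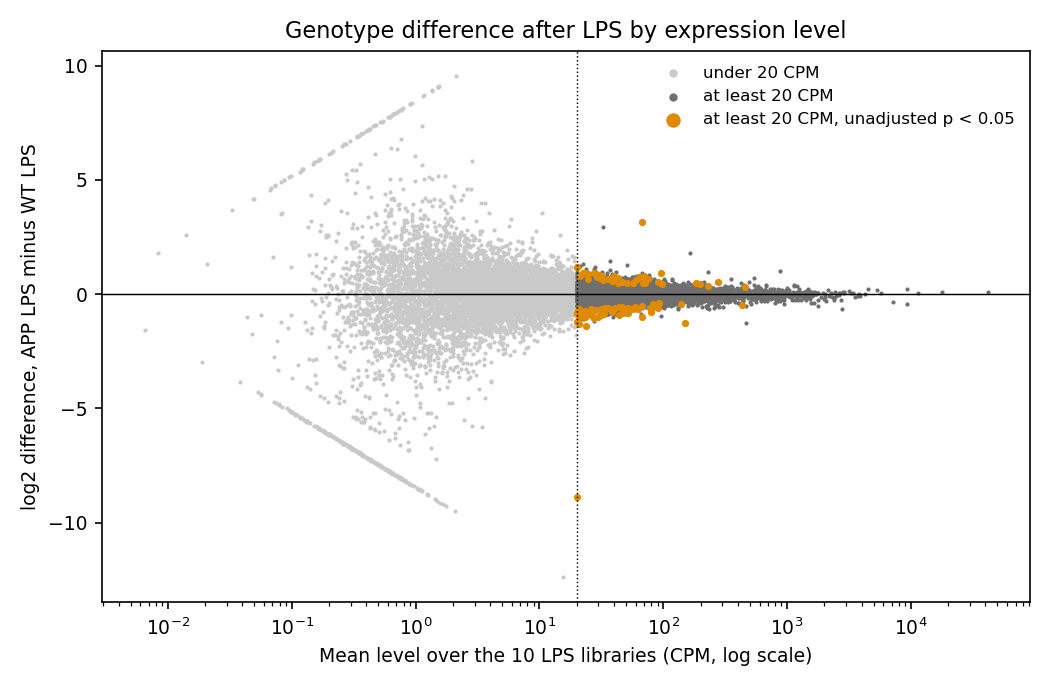
Log2 difference, APP LPS minus WT LPS, for each tested gene against its mean level over the 10 LPS libraries (CPM, log scale); light grey marks sparse genes, dark grey abundant genes, and orange the 96 abundant genes with an unadjusted p under 0.05. The spread narrows with level, and the straight diagonal rims are genes at 0 in a whole group, whose fitted size depends on the prior count.

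Mouse App, the gene whose human form the mice carry, had overlapping levels in the genotypes. App (chr16:84949685-85173766, minus strand, GRCm38) had 1930, 1530, 976, 1380 and 1800 CPM in APP LPS libraries, against 1680, 1370, 1780, 1420 and 1920 CPM in WT LPS libraries. The ranges overlapped, with the lowest value in APP LPS replicate 3. The log2 difference was −0.09 ± 0.21 (SE; 95% interval −0.53 to 0.34; edgeR adjusted p = 1). The sources used here do not say if transgene reads were assigned to this entry, so App does not check the genotype labels. Its paralog Aplp2 averaged 154 ± 17.9 CPM in APP LPS and 197 ± 49.3 CPM in WT LPS (SD, n = 5 each), and the other paralog, Aplp1, was sparse at 4.4 ± 5.86 CPM in APP LPS and 1.69 ± 1.69 CPM in WT LPS.

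None of the enzymes named here that cut the precursor passed the test. Bace1, the β-secretase that opens the amyloid route, averaged 18.1 ± 14.9 CPM in APP LPS and 17.8 ± 9.92 CPM in WT LPS. Adam10, the main α-secretase, averaged 150 ± 22.9 CPM in APP LPS and 135 ± 25.9 CPM in WT LPS, and Adam17, which also sheds Tnf, 237 ± 85 CPM in APP LPS and 253 ± 66.9 CPM in WT LPS. Of the γ-secretase genes, the catalytic Psen2 had a log2 difference of −0.24 ± 0.31, and the partners Ncstn, Aph1a, Psenen, Aph1b and the sparse Aph1c had 0.41 ± 0.45, 0.17 ± 0.22, 0.19 ± 0.29, −0.48 ± 0.49 and −0.99 ± 0.81 (SE). Of 26 abundant genes of amyloid precursor processing and clearance 11 were above 0, with a median of −0.09 beside 0.00 for all abundant genes, and 1 had an unadjusted p under 0.05.

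That gene was Ece1, endothelin-converting enzyme, which can also degrade amyloid β peptide. Ece1 (chr4:137862237-137965229, plus strand, GRCm38) had 44.7, 70.8, 53.1, 57 and 69 CPM in APP LPS libraries, against 89.5, 59.1, 125, 131 and 99.7 CPM in WT LPS libraries. WT LPS replicate 2 lay inside the APP LPS range and the other 4 WT LPS libraries lay above it. The log2 difference was −0.77 ± 0.25 (SE; 95% interval −1.3 to −0.25; edgeR adjusted p = 1), and −0.18 ± 0.27 without LPS.

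The largest fitted difference of an abundant gene belonged to genes that share sequence. Ugt1a genes encode enzymes that attach glucuronic acid to small molecules for excretion. Each has its own first exon and all run into the same later exons. In the GENCODE M21 transcripts (GRCm38) 6 of them share the last 737 coding bases, which lie closest to the 3′ end where these reads start. The first 60 coding bases of Ugt1a6a, Ugt1a8 and Ugt1a9 are shown, 5′ to 3′, because they lie in the part that tells the genes apart, with capitals where the 3 genes are not all alike.
Ugt1a6a first: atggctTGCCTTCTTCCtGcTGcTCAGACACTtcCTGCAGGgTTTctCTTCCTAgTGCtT
Ugt1a8 first: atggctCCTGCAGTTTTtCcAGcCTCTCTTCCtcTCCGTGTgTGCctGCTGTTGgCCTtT
Ugt1a9 first: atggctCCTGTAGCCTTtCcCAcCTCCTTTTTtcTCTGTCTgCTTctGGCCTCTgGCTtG

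Ugt1a6a (chr1:88134809-88218997, plus strand, GRCm38) had 0.325, 0, 0, 0 and 0 CPM in APP LPS libraries, against 0, 41.2, 72.1, 86.5 and 0.227 CPM in WT LPS libraries. Among LPS libraries it was above 1 CPM only in WT LPS replicates 2, 3 and 4, and the groups overlapped. With vehicle it had 54, 0, 0, 35.3 and 61.1 CPM in APP libraries, against 0, 52.2, 142 and 28.3 CPM in WT libraries, so both genotypes held it. The fitted log2 difference was −8.89 ± 2.29 (SE; edgeR adjusted p = 1). Ugt1a8 (chr1:88087813-88219004) ran the other way, with 0, 0, 130, 36.5 and 84 CPM in APP LPS and 0 CPM in all WT LPS libraries. It was the 1 abundant gene that edgeR's filter on low counts left out. These were also the 2 abundant genes that DESeq2 called.

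Summed over the family, the levels overlapped between the groups. The 6 Ugt1a genes together had 150, 257, 319, 253 and 152 CPM in APP LPS libraries, against 244, 250, 155, 297 and 118 CPM in WT LPS libraries. The means were 226 ± 73.5 CPM in APP LPS and 212 ± 73.8 CPM in WT LPS (SD, n = 5 each), a log2 difference of 0.10 ± 0.30 (SE; edgeR adjusted p = 1). The values of single Ugt1a genes are given as uncertain, since reads from the shared exons do not tell the genes apart; how reads were assigned was not tested.

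The Srp54 genes share coding sequence too. They encode the subunit of the signal recognition particle that binds signal peptides of secreted proteins, and lie side by side on chromosome 12. Over 1512 coding bases Srp54a and Srp54b were identical, Srp54c differed from them at 6 positions (99.6% identity), and all 3 shared the last 263 coding bases. Only coding bases were compared, while the transcripts are 3642 to 4498 bases long. Whether the genes are alike where the 3′ reads start was not tested. The last 60 coding bases are identical.
Srp54b: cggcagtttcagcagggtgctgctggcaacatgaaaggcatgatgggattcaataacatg
Srp54c: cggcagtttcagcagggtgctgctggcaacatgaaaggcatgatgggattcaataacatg
The stretch with most differences, coding positions 945 to 1004 counted from the start codon, has 3, in capitals.
Srp54b 945 to 1004: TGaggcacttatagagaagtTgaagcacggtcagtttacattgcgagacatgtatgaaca
Srp54c 945 to 1004: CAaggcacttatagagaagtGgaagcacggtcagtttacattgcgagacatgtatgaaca

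Srp54b (chr12:55155104-55189573) had 52.9, 63.1, 46.8, 163 and 114 CPM in APP LPS libraries, against 133, 321, 225, 230 and 163 CPM in WT LPS libraries, a log2 difference of −1.28 ± 0.46 (SE; edgeR adjusted p = 1). Srp54c (chr12:55230168-55263836) had 147, 64.6, 87.4, 131 and 191 CPM in APP LPS, against 74.8, 58.8, 46.8, 46.2 and 105 CPM in WT LPS, a difference of 0.91 ± 0.31 (edgeR adjusted p = 1). Both overlapped between groups and neither passed adjustment. The 3 genes together averaged 410 ± 76.9 CPM in APP LPS and 486 ± 94.9 CPM in WT LPS (SD, n = 5 each), a log2 difference of −0.24 ± 0.19 (SE; edgeR adjusted p = 1).

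**Figure D3:**
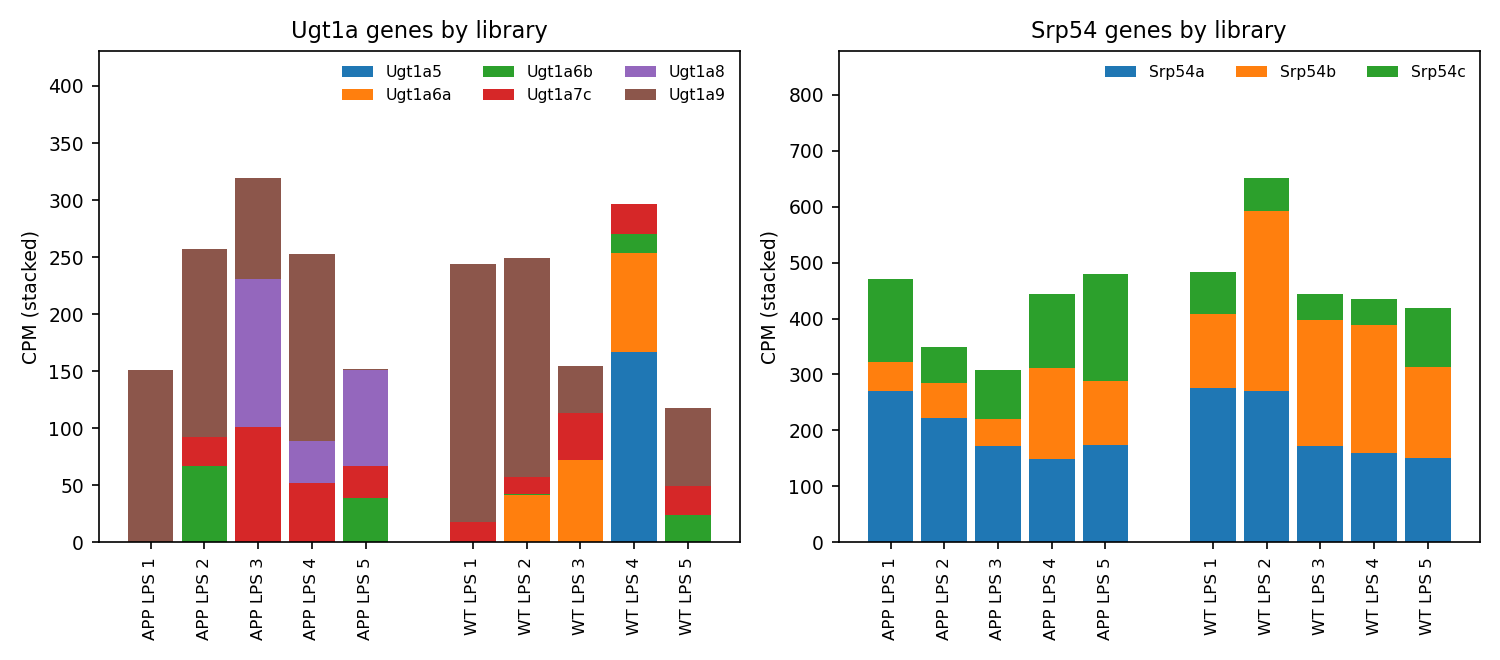
Stacked CPM of the Ugt1a genes (left) and of Srp54a, Srp54b and Srp54c (right) in each library, APP LPS bars left of WT LPS bars in each panel. The make-up of a bar shifts from library to library while its height overlaps between genotypes, on average 226 CPM in APP LPS and 212 CPM in WT LPS for Ugt1a, and 410 CPM in APP LPS and 486 CPM in WT LPS for Srp54.

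The abundant genes with the smallest p in the upward direction, apart from Srp54c, were Rnf138, Upf2, Nxt1, 1110059E24Rik, Rnf169, Khdc4 and Adamts1. Nxt1, a partner of the messenger RNA export receptor, had 32.2, 24.3, 42.5, 32.8 and 22.8 CPM in APP LPS libraries, against 11.6, 22.1, 15.5, 20.8 and 12.8 CPM in WT LPS libraries. Every APP LPS library lay above every WT LPS library, by a margin of less than 1 CPM between the nearest pair. The log2 difference of Nxt1 (chr2:148672601-148676027) was 0.91 ± 0.32 (SE; edgeR adjusted p = 1).

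Rnf169, a ubiquitin reader at DNA double-strand breaks, had 65.4, 46.5, 39.6, 35.2 and 32.4 CPM in APP LPS, against 28.6, 29.4, 30.1, 25.7 and 26.2 CPM in WT LPS. Khdc4, an RNA-binding protein of the KH family, had 58.8, 38.3, 30.6, 38.1 and 36 CPM in APP LPS, against 20.4, 27.1, 24.7, 19.2 and 24.3 CPM in WT LPS. In these genes too the groups did not overlap, and APP LPS replicate 1 was the highest library. Their log2 differences were 0.65 ± 0.24 for Rnf169 and 0.81 ± 0.31 for Khdc4 (SE), each with an adjusted p of 1.

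The other upward genes overlapped between the groups. Rnf138, a ubiquitin ligase of DNA break repair, had 24, 26.1, 42.9, 50.5 and 41.9 CPM in APP LPS libraries, against 24.2, 17.6, 15.6, 18.3 and 24.9 CPM in WT LPS libraries, and its log2 difference of 0.88 ± 0.29 had the smallest upward p (edgeR adjusted p = 1). Upf2, a core factor of nonsense-mediated decay, averaged 93.1 ± 26 CPM in APP LPS and 58.2 ± 16 CPM in WT LPS. Adamts1, a secreted metalloprotease, averaged 88 ± 32.5 CPM in APP LPS and 51.2 ± 5.52 CPM in WT LPS, and the uncharacterised 1110059E24Rik 50.8 ± 17 CPM in APP LPS and 29.5 ± 6.22 CPM in WT LPS (SD, n = 5 each).

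The abundant genes with the smallest downward p, apart from Ugt1a6a, Ece1 and Srp54b, were Fam168a, Tmem86a, Slc45a4, Mrps5 and Api5. Api5, an inhibitor of apoptosis, had 34.2, 32.1, 28.7, 33.7 and 33.1 CPM in APP LPS libraries, against 57.6, 55, 41, 43.5 and 52.3 CPM in WT LPS libraries. The groups were apart, and APP LPS libraries were the tighter group. The log2 difference of Api5 (chr2:94411682-94438136) was −0.62 ± 0.22 (SE; edgeR adjusted p = 1).

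Fam168a had 16.4, 12.3, 16.6, 23.2 and 21.5 CPM in APP LPS, against 33.4, 41.6, 35.8, 22.7 and 45.2 CPM in WT LPS, with 1 WT LPS library inside the APP LPS range (log2 difference −0.99 ± 0.32). Tmem86a, an enzyme that breaks down lysoplasmalogen lipids, had 13, 20.1, 12.1, 12.6 and 7.39 CPM in APP LPS, against 43.9, 49.6, 29.2, 40.8 and 7.23 CPM in WT LPS. WT LPS replicate 5 was at the APP LPS level and the other 4 WT LPS libraries were above it. Slc45a4, a solute carrier, averaged 16.4 ± 2.97 CPM in APP LPS and 29.8 ± 6.47 CPM in WT LPS, and Mrps5, a protein of the mitochondrial ribosome, 23.4 ± 11.7 CPM in APP LPS and 42.8 ± 7.53 CPM in WT LPS (SD, n = 5 each).

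**Figure D4:**
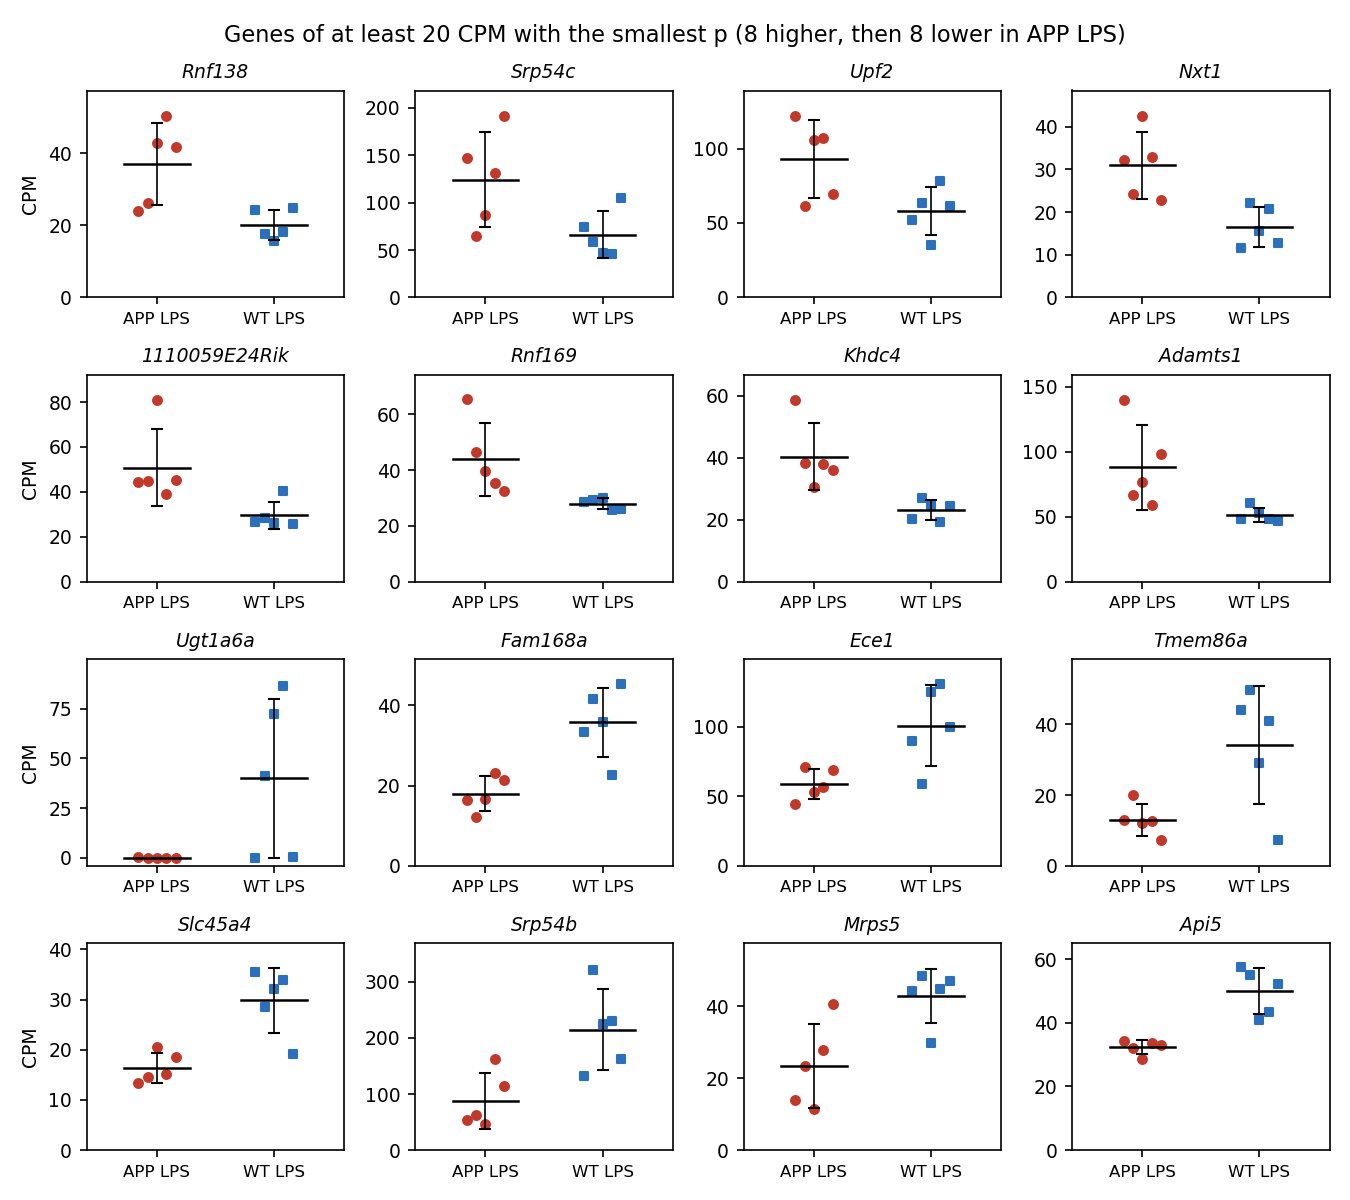
CPM in each library for the 16 abundant genes with the smallest p, 8 higher and then 8 lower in APP LPS; points are libraries (circles APP LPS, squares WT LPS), long bars the mean and error bars 1 SD. Nxt1, Rnf169, Khdc4 and Api5 separate the groups without overlap, and the other 12 do not.

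Groups without overlap were rare. Among the 6188 abundant genes 17 (0.275%) had all APP LPS libraries on one side of all WT LPS libraries, 10 above and 7 below, and among the 7925 sparse genes 50 did (0.631%), 10 above and 40 below. The following were picked from the 17 after their values were seen. Psma4, a subunit of the 20S proteasome, had 333, 384, 355, 374 and 385 CPM in APP LPS, against 303, 323, 281, 320 and 331 CPM in WT LPS, a log2 difference of 0.24 ± 0.15 (edgeR adjusted p = 1). Hspe1, the small mitochondrial chaperonin, averaged 651 ± 77.6 CPM in APP LPS and 505 ± 24 CPM in WT LPS.

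Cluh, which binds messenger RNAs of mitochondrial proteins, had 39.3, 26.6, 51.6, 34.6 and 37 CPM in APP LPS, against 22.6, 25.2, 22.4, 23.8 and 23.9 CPM in WT LPS. On the lower side, Lig4, the ligase of non-homologous end joining, had 16.7, 12.3, 10, 17.7 and 16.6 CPM in APP LPS, against 25.5, 26.4, 24.7, 27.8 and 25.5 CPM in WT LPS. Snrk, a kinase related to AMPK, averaged 13.4 ± 5.92 CPM in APP LPS and 28.1 ± 3.94 CPM in WT LPS. In each of these 3 genes the nearest libraries of the groups were within 10 CPM of each other, and no adjusted p was below 1.

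Inflammatory genes had overlapping levels in the 2 genotypes after LPS. Il1b, the precursor of interleukin 1β, was above its vehicle level by 3.11 in APP and 2.99 in WT microglia on the log2 scale. Il1b had 328, 729, 233, 265 and 433 CPM in APP LPS libraries, against 194, 245, 305, 388 and 428 CPM in WT LPS libraries. APP LPS replicate 2 was the highest and the ranges overlapped, with a log2 difference of 0.35 ± 0.59 (SE; 95% interval −0.88 to 1.59; edgeR adjusted p = 1). Tnf averaged 82.3 ± 36.6 CPM in APP LPS and 78.6 ± 16.3 CPM in WT LPS, a difference of 0.07 ± 0.32.

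Il6 had 269, 124, 85.3, 181 and 715 CPM in APP LPS, against 76.5, 113, 214, 170 and 573 CPM in WT LPS, with replicate 5 the highest of both groups. Its log2 difference of 0.27 ± 0.83 was −0.47 without APP LPS replicate 5. Cxcl5, a neutrophil chemokine, had 255, 31.2, 4.71, 93.6 and 882 CPM in APP LPS, against 34, 26.3, 39.2, 52.7 and 208 CPM in WT LPS. Its difference of 1.82 ± 1.61 was 0.42 without APP LPS replicate 5.

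Of 26 abundant cytokines and chemokines 19 were above 0 in APP LPS (50.4% of all abundant genes were), with a median log2 difference of 0.18, between 0.08 and 0.25 when any 1 library was left out. For interferon-stimulated genes the count was 27 of 44 with a median of 0.13 (0.04 to 0.27 over left-out libraries, lowest without APP LPS replicate 1), and for NF-kB and LPS-response effectors 18 of 33 with a median of 0.05 (−0.03 to 0.11, lowest without WT LPS replicate 4). Igtp, an interferon-inducible GTPase, averaged 34.2 ± 14 CPM in APP LPS and 20.5 ± 5.24 CPM in WT LPS, and H2-Q7, a class Ib histocompatibility gene with close relatives that can share reads, 29.6 ± 14.8 CPM in APP LPS and 12.9 ± 8.85 CPM in WT LPS. Of 18 abundant brakes on LPS signalling 3 were above 0, with a median of −0.12 (−0.25 without APP LPS replicate 2, −0.03 without APP LPS replicate 1). Il1rn, the interleukin 1 receptor antagonist, averaged 230 ± 108 CPM in APP LPS and 322 ± 205 CPM in WT LPS, with ranges that overlapped.

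One LPS-response gene had an unadjusted p under 0.05. Cd86, a costimulatory ligand for T cells, had 4.43, 19.1, 5.19, 20.6 and 10.9 CPM in APP LPS, against 19.1, 45.8, 24.9, 40.2 and 10.5 CPM in WT LPS. WT LPS replicate 5 was among the APP LPS values, and the log2 difference was −1.22 ± 0.48 (SE; edgeR adjusted p = 1). Tlr2, a receptor for bacterial lipoproteins, averaged 29.4 ± 19.1 CPM in APP LPS and 44.1 ± 18.2 CPM in WT LPS, and Irf8, a transcription factor of the microglial lineage, 37.1 ± 20.2 CPM in APP LPS and 56.4 ± 23.6 CPM in WT LPS.

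Most core macrophage markers had lower means in APP LPS, and their summed level varied between libraries of a group. Of 20 core macrophage markers 4 were above 0, with a median log2 difference of −0.20 (with vehicle 6 of 20 and −0.10). Their summed level was 14900, 19500, 23100, 19000 and 5000 CPM in APP LPS libraries, against 24000, 27300, 21200, 20100 and 8790 CPM in WT LPS libraries. Replicate 5 was the lowest of both groups, and without APP LPS replicate 5 the median was 0.03, while without both replicates 5 it was −0.14. Fewer macrophages among the cultured cells and less RNA of these genes per macrophage cannot be told apart in such samples.

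Other macrophage lists leaned the same way, and edgeR called no member of them, while DESeq2 called 1, the sparse Ltc4s of the homeostatic list. Above 0 in APP LPS were 7 of 30 abundant homeostatic microglia genes (median −0.24), 12 of 42 disease-associated microglia genes (−0.13), 15 of 50 genes of phagocytic receptors and engulfment (−0.15), 6 of 18 complement genes (−0.19) and 7 of 59 genes of lysosome and phagosome acidification (−0.17). For the Alzheimer risk genes of myeloid cells it was 5 of 24 (−0.17), for alternative activation 3 of 12 (−0.41) and for border-associated macrophage markers 2 of 7 (−0.32). With vehicle the medians of the same genes were below 0 too. They were −0.11 for homeostatic, −0.05 for disease-associated, −0.07 for phagocytic, −0.07 for complement and −0.06 for lysosome genes. For risk genes, alternative activation and border-associated markers they were −0.11, −0.23 and −0.08. Several of these lists share genes with the core macrophage markers (7 in the homeostatic list, for example), and the part of the macrophage level in these values was not tested. The medians after LPS depended on single libraries. Without APP LPS replicate 5 they were −0.08 for disease-associated genes, 0.02 for phagocytic receptors, 0.00 for complement and −0.04 for the lysosome. Without WT LPS replicate 5 the same lists were at −0.25, −0.32, −0.38 and −0.26, and without both replicates 5 at −0.14, −0.09, −0.17 and −0.13. With any 1 library left out, homeostatic genes stayed between −0.42 and −0.15, alternative activation between −0.52 and −0.27, border-associated markers between −0.51 and −0.08, and risk genes between −0.32 and −0.05.

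Apoe, the lipid carrier that rises in microglia near plaques, had 204, 147, 172, 169 and 223 CPM in APP LPS libraries, against 115, 345, 273, 283 and 287 CPM in WT LPS libraries. WT LPS replicate 1 was the lowest of all and the other 4 WT LPS libraries lay above the APP LPS range. The log2 difference was −0.50 ± 0.24 (SE; 95% interval −1.01 to 0.01; edgeR adjusted p = 1), between −0.69 and −0.38 when any 1 library was left out, and −0.49 ± 0.26 without LPS. Trem2 had 40, 87.2, 35.6, 60 and 11.4 CPM in APP LPS, against 137, 92.8, 76.1, 103 and 20.1 CPM in WT LPS. Each group's lowest value was its replicate 5, and the difference was −0.87 ± 0.55 (edgeR adjusted p = 1).

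Tyrobp, the adaptor through which Trem2 signals, had 561, 1310, 1100, 1270 and 159 CPM in APP LPS, against 1560, 1290, 852, 977 and 280 CPM in WT LPS. The complement chains C1qa, C1qb and C1qc, which tag synapses for removal in mice, had log2 differences of −0.21 ± 0.44, −0.36 ± 0.57 and −0.45 ± 0.50 (SE). Cd68, a lysosomal membrane protein of phagocytes, averaged 81.7 ± 51.3 CPM in APP LPS and 115 ± 62.3 CPM in WT LPS, and Csf1r, the receptor for the growth factor in the medium, 165 ± 67.6 CPM in APP LPS and 162 ± 42.3 CPM in WT LPS. Lyz2, lysozyme, averaged 7950 ± 3170 CPM in APP LPS and 10800 ± 3840 CPM in WT LPS, and Mrc1, the mannose receptor, 180 ± 127 CPM in APP LPS and 272 ± 124 CPM in WT LPS. None of these had an unadjusted p under 0.05.

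Of the genes that mark resting microglia, P2ry12 and Tmem119 were sparse. P2ry12, the purine receptor that guides microglial processes, had 0, 0, 0, 0 and 2.55 CPM in APP LPS libraries, against 7.56, 6.59, 7.66, 15.6 and 0.795 CPM in WT LPS libraries. Replicate 5 ran against the other 4 in both groups, and the log2 difference was −3.85 ± 1.72 (SE; edgeR adjusted p = 1). Tmem119 averaged 6.54 ± 6.33 CPM in APP LPS and 5.84 ± 1.74 CPM in WT LPS, and Cx3cr1, the fractalkine receptor, 38.8 ± 42.5 CPM in APP LPS and 41.9 ± 29.1 CPM in WT LPS.

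Of lysosomal and related genes, Naglu, which degrades heparan sulfate, had 29.9, 17.4, 15.9, 20.9 and 16.3 CPM in APP LPS, against 44.7, 21.6, 29.5, 38.8 and 24.2 CPM in WT LPS. The ranges overlapped, with a log2 difference of −0.66 ± 0.30 (edgeR adjusted p = 1). Ctsd, cathepsin D, averaged 1350 ± 528 CPM in APP LPS and 1790 ± 433 CPM in WT LPS, and Ctsa 166 ± 65.3 CPM in APP LPS and 249 ± 73.8 CPM in WT LPS. Lgals3, galectin 3, averaged 228 ± 79.2 CPM in APP LPS and 340 ± 103 CPM in WT LPS, and Pros1, which bridges dying cells to phagocytes, 79.9 ± 35.2 CPM in APP LPS and 122 ± 22.5 CPM in WT LPS (SD, n = 5 each).

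**Figure D5:**
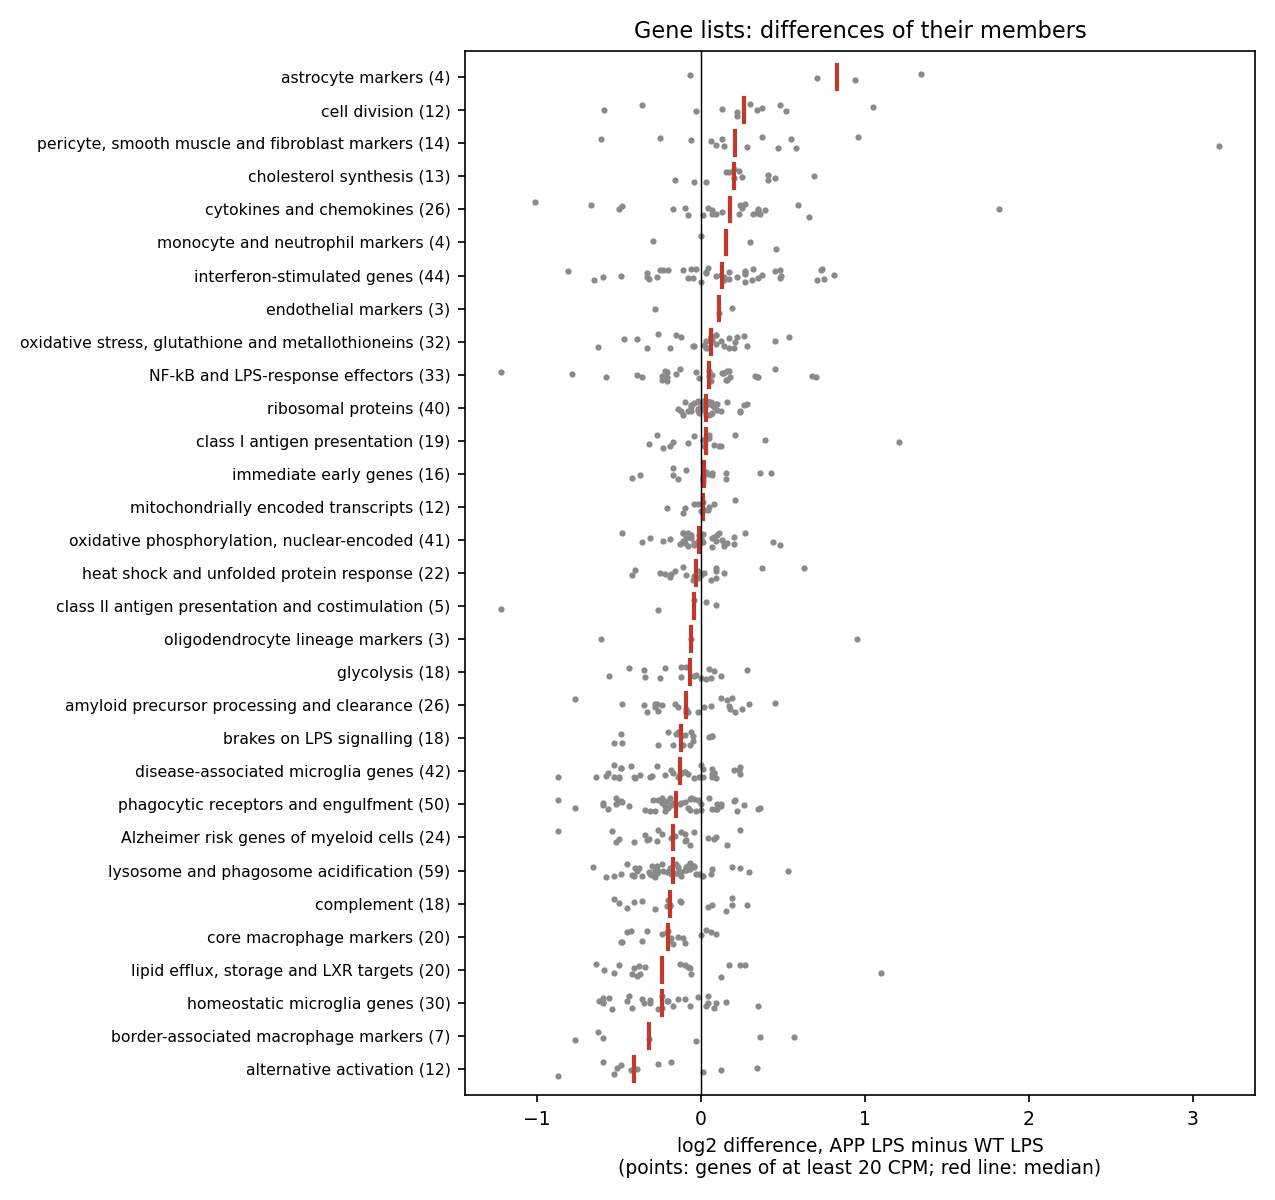
Log2 difference, APP LPS minus WT LPS, of each abundant member (grey points) and the median (red line) of gene lists with at least 3 abundant members, the number of which stands in brackets. Macrophage, lysosome and lipid efflux lists lie left of 0 (medians down to −0.41) and cytokine, cholesterol, cell division and astrocyte lists right of it (up to 0.83), with no member of any list called by edgeR.

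The cholesterol, cell division and astrocyte lists lay on the other side of 0, and each median fell most when a single library was left out. With vehicle the medians of the same genes were 0.27, 0.25 and 0.90, with 10 of 13, 11 of 12 and 4 of 4 above 0. Of 13 abundant cholesterol synthesis genes 11 were above 0, with a median of 0.20 that was −0.20 without APP LPS replicate 1. Hmgcs1, which makes the substrate of the rate-limiting step, had 360, 114, 63.1, 47.9 and 39.8 CPM in APP LPS, against 155, 72.5, 70.4, 102 and 71.1 CPM in WT LPS, and Fdft1, squalene synthase, 121, 5.63, 19.6, 10.7 and 13.4 CPM in APP LPS, against 24.9, 16.7, 16.9, 29.3 and 18.7 CPM in WT LPS. APP LPS replicate 1 was the highest library for both genes, and without it the log2 differences were −0.51 and −0.79. On the export side, 5 of 20 abundant genes of lipid efflux, storage and LXR targets were above 0, with a median of −0.24 that was −0.11 without APP LPS replicate 5 and −0.12 without both replicates 5. With vehicle 5 of these 20 genes were above 0, with a median of −0.25.

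Of 12 abundant cell division genes 9 were above 0, with a median of 0.26 that was −0.22 without APP LPS replicate 5. Top2a, the topoisomerase of dividing cells, had 39, 16.3, 8.21, 24.8 and 161 CPM in APP LPS, against 6.95, 16.5, 33.4, 29.5 and 34.8 CPM in WT LPS. The same library led connective tissue genes. Igfbp5, a binding protein of insulin-like growth factors, had 81.5, 15.5, 2.84, 5.49 and 501 CPM in APP LPS, against 8.13, 4.39, 10.4, 5.13 and 40.2 CPM in WT LPS, a log2 difference of 3.16 ± 1.25 (edgeR adjusted p = 1) that was 0.96 without APP LPS replicate 5. Col1a2, a collagen I chain, had 298, 61.5, 65.5, 83 and 1020 CPM in APP LPS, against 86.4, 64, 211, 162 and 264 CPM in WT LPS, and its difference of 0.96 ± 0.74 was −0.30 without that library.

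Markers of other cell types moved beside these values. Pericyte, smooth muscle and fibroblast markers were summed without Lrrc17, which held most of their counts, a choice made after its values were seen. They came to 6220, 3200, 2240, 4440 and 9560 CPM in APP LPS libraries, against 3280, 2690, 5580, 3370 and 6040 CPM in WT LPS libraries, and were highest in both replicates 5, where the core macrophage markers were lowest. With Lrrc17 the sums were 31800, 35100, 47300, 82500 and 43000 CPM in APP LPS, against 53800, 34800, 50600, 33300 and 50100 CPM in WT LPS, with replicate 5 the highest of neither group. Astrocyte markers summed to 641, 321, 421, 313 and 328 CPM in APP LPS, against 417, 288, 383, 367 and 212 CPM in WT LPS, highest in APP LPS replicate 1. Of their 4 abundant members 3 were above 0, and the median of 0.83 was 0.14 without that library. The part of other cells in the list values was not tested.

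Of the astrocyte genes, Sox9, a transcription factor, had 30.8, 18.2, 18.6, 21.5 and 59.5 CPM in APP LPS, against 7.61, 12.2, 20.1, 13.9 and 24 CPM in WT LPS. Its log2 difference was 0.94 ± 0.45 (edgeR adjusted p = 1), and 1.57 ± 0.49 without LPS. Gja1, connexin 43, averaged 60.2 ± 36.3 CPM in APP LPS and 36.9 ± 10.6 CPM in WT LPS. Slc1a2, a glutamate transporter, had 128, 2.25, 16.2, 1.5 and 14.1 CPM in APP LPS, against 30.9, 3.4, 20.6, 3.38 and 5.94 CPM in WT LPS, again with APP LPS replicate 1 the highest.

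The abundant members of energy and housekeeping lists had medians near 0. Nuclear-encoded genes of oxidative phosphorylation had a median of −0.01 with 18 of 41 above 0, mitochondrially encoded transcripts 0.01 with 7 of 12, ribosomal proteins 0.03 with 25 of 40, glycolysis −0.07 with 6 of 18, and oxidative stress genes 0.06 with 22 of 32. The sparse mt-Nd4l, also mitochondrially encoded, had 0 counts over the APP LPS libraries and 3722 over the WT LPS libraries. DESeq2 called it (adjusted p = 1.62e-11) and edgeR did not. The 12 abundant mitochondrially encoded transcripts had log2 differences between −0.21 and 0.21. Uqcrq, a subunit of complex III, had 329, 263, 335, 411 and 475 CPM in APP LPS, against 580, 530, 516, 459 and 448 CPM in WT LPS. Of the APP LPS libraries only replicate 5 reached the WT LPS range, and the log2 difference was −0.48 ± 0.18 (edgeR adjusted p = 1). Of 22 abundant heat shock and unfolded protein response genes 9 were above 0 (median −0.03). Dnajb1, an Hsp70 co-chaperone, averaged 73.6 ± 20.1 CPM in APP LPS and 47.7 ± 17.3 CPM in WT LPS, a difference of 0.63 ± 0.27 (edgeR adjusted p = 1).

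Among the sparse genes with the smallest p, several had no count in a whole group. Of the sparse genes given below, DESeq2 called Mecr, Ppdpf, Dnaaf1, Ltc4s, Fcna, Or5al5 and Rgs9, and not Hus1 or Postn. Mecr, an enzyme of mitochondrial fatty acid synthesis, had the smallest p of all genes (edgeR adjusted p = 1), with 0, 0, 0.242, 0.333 and 0.0456 CPM in APP LPS, against 0.284, 7.75, 3.96, 13.6 and 8.56 CPM in WT LPS. WT LPS replicate 1 lay within the APP LPS range. Its 9 counts over the APP LPS libraries compare with 723 over the WT LPS libraries. Ppdpf had 10.5, 5.58, 4.11, 11.6 and 6.34 CPM in APP LPS, against 30.8, 21.8, 26.8, 25.1 and 11.2 CPM in WT LPS, a log2 difference of −1.60 ± 0.38 with a narrow overlap. Its DESeq2 adjusted p was 0.00182, and it had at least 68 counts in each of the 19 libraries.

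Dnaaf1, an assembly factor of ciliary dynein, had no count in any APP LPS library, against 2.36, 4.72, 2.62, 1.82 and 5.26 CPM in WT LPS. Its WT LPS mean was 108-fold above a floor of 3 counts over the APP LPS group. Ltc4s, leukotriene C4 synthase, also had none, against 0, 2.4, 3.17, 13.8 and 1.48 CPM in WT LPS, a mean 134-fold above that floor. These folds allow for counting error only and leave out the spread between libraries. The 95% intervals of the fitted log2 differences were −13.4 to −4.99 for Dnaaf1 and −14.07 to −4.94 for Ltc4s. With vehicle both were present in APP libraries, at up to 4.35 CPM for Dnaaf1 and 7.56 CPM for Ltc4s. Fcna, the gene limma voom called, had 0.0406, 0, 0, 0.5 and 0 CPM in APP LPS, against 4.58, 5.39, 3.67, 4.41 and 6.02 CPM in WT LPS. Its edgeR log2 difference was −5.51 ± 1.39 (adjusted p = 1), and that of limma voom −6.43 (adjusted p = 0.0462).

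Upward among sparse genes, Or5al5, an olfactory receptor, had 6.34, 4.03, 0, 1.91 and 2.83 CPM in APP LPS and no count in WT LPS. Its APP LPS mean was 112-fold above a floor of 3 counts over the WT LPS group. Rgs9, a brake on G protein signalling, had 8.17, 3.1, 0, 2.33 and 0 CPM in APP LPS and no count in WT LPS, a mean 101-fold above that floor. Here too the folds allow for counting error only. The 95% intervals of the fitted log2 differences were 3.22 to 14.89 for Or5al5 and 3.1 to 14.7 for Rgs9. With vehicle both were present in WT libraries, at up to 3.35 CPM for Or5al5 and 4.74 CPM for Rgs9. Hus1, a clamp subunit of the DNA damage checkpoint, had 18.3, 26.2, 13, 18.2 and 19.3 CPM in APP LPS, against 0.945, 3.4, 6.25, 7.08 and 11.1 CPM in WT LPS. The groups did not overlap, and the log2 difference of Hus1 was 1.73 ± 0.56 (edgeR adjusted p = 1). Postn, periostin of the connective tissue matrix, had 33, 8.91, 24.9, 6.74 and 58.1 CPM in APP LPS, against 6.33, 7.09, 10.7, 4.61 and 6.4 CPM in WT LPS, highest in the library with most collagen.

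Whether LPS altered the genotype difference was asked with the interaction, the APP minus WT difference after LPS minus that with vehicle. By edgeR 0 of 14113 genes passed (0%), with 385 at an unadjusted p under 0.05 (2.73%), of which 53 were abundant. With vehicle alone 0 genes were called and 402 had an unadjusted p under 0.05. DESeq2 called 104 genes in the interaction, 27 higher and 77 lower. The log2 differences after LPS and with vehicle had the same sign for 64 of the 96 abundant genes with an unadjusted p under 0.05 (66.7%) and for 3511 of all 6188 (56.7%), and whether LPS and vehicle libraries share cultures is not given in the sources used here. Vehicle and LPS libraries of a genotype carry neighbouring library numbers in their labels (3 and 4, or 7 and 8, for example). The fit did not pair them, and if they share cultures the differences are not independent.

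Of those 96 genes, Uqcrq, Cluh and Sox9 had an unadjusted p under 0.05 with vehicle too, with the same sign. With vehicle Uqcrq had 382, 356, 301, 377 and 514 CPM in APP libraries, against 515, 625, 547 and 566 CPM in WT libraries, a log2 difference of −0.55 ± 0.19. Every APP vehicle library lay below every WT vehicle library. Cluh differed by 0.72 ± 0.35 with vehicle and 0.69 ± 0.32 after LPS. Srp54c, by contrast, differed by −0.68 ± 0.33 with vehicle and 0.91 ± 0.31 after LPS (edgeR interaction adjusted p = 1), within the Srp54 family, whose members share coding sequence.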

How the data were processed

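RNA of cultured cortical microglia (RNA integrity above 8.5) was read with QuantSeq 3′ sequencing with molecular identifiers, per the labels' protocols. The authors deposited estimated counts per gene, whole as deposited, so rounding changed none. The submitters' processing notes name FastQC, Trimmomatic, kallisto and DESeq2. The sources used here do not give the genome build, the annotation or how identifiers were collapsed. Coordinates and sequences are from GENCODE M21 (GRCm38).

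All 19 libraries, of 4 groups, were fitted with 1 coefficient per group in edgeR 4.0.16 (R 4.3.3; TMM scaling, default filter on low counts, quasi-likelihood test, Benjamini-Hochberg adjustment, threshold 0.05), which kept 14113 of 16941 genes. The test was checked on simulated data. CPM values were computed on the TMM-scaled library totals. Alternatives were DESeq2 1.42.0, limma 3.58.1 voom, other scalings and abundance limits, the 10 LPS libraries alone, a replicate block, a Ddx3y covariate, omitted libraries, and family sums. No replicate pair agreed within sampling noise (chi-square per degree of freedom at least 85.9 over 36 pairs). The library called WT LPS replicate 1 carries different library numbers in its label and its file name.

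The text names the abundant genes with the smallest p in each direction (8 each), sparse genes likewise (4 each), the App family and secretases, a set of microglial and cytokine genes, some of the up to 4 abundant genes with the smallest p in each list, and a few singled out after their values were seen. The members and the 34 gene lists were chosen with earlier results of these data known. No spike-in entries were in the tables.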

Additional observations from a re-analysis of the deposited data

Results flagged for a closer look

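In 27 of 222 groups of 5 libraries (12.2%), for named genes and list sums, 1 library stood far from the other 4. Chance gives this in about 1 in 20 groups of independent, normally distributed values. The groups here share libraries, and some genes were picked after their values were seen, so that rate is no measure for them. Of the 27, APP LPS replicate 5 accounted for 8, APP LPS replicate 1 for 6 and WT LPS replicate 5 for 6.

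In APP LPS replicate 5, Cxcl5 was at 882 CPM, Top2a at 161, Igfbp5 at 501, Col1a2 at 1020, P2ry12 at 2.55 and Xylt1 at 2.46 CPM, each above the other 4. The same library had the lowest sums of amyloid precursor processing genes, 7730 CPM, and of disease-associated microglia genes, 26500 CPM. In WT LPS replicate 5, Il6 was at 573 CPM, Cxcl5 at 208, Igfbp5 at 40.2 and Gja1 at 55.3 CPM, and the summed cytokines and chemokines at 15400 CPM, each above the other 4, while the summed homeostatic microglia genes were lowest at 5060 CPM. These libraries also had the lowest core macrophage sums of their groups, whose part was not tested.

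APP LPS replicate 1 was highest for Fdft1 at 121 CPM, Hmgcs1 at 360, summed cholesterol synthesis at 1870, Slc1a2 at 128, Khdc4 at 58.8 and Ugt1a6a at 0.325 CPM. Elsewhere, 1110059E24Rik was at 80.9 CPM in APP LPS replicate 3 and 40.4 CPM in WT LPS replicate 4, Aplp1 at 14.6 CPM in APP LPS replicate 2 and Fcna at 0.5 CPM in APP LPS replicate 4. Ltc4s was at 13.8 CPM in WT LPS replicate 4, Tmem119 at 8.84 CPM in WT LPS replicate 1, and Mrps5 was low at 29.7 CPM in WT LPS replicate 3.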

How the results depend on the processing

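The edgeR count of 0 called genes was 94 with DESeq2, 1 with limma voom, and between 0 and 1 when any 1 library was left out; the 1 was Xylt1 without APP LPS replicate 5. For genes of at least 20 CPM it was 2 with DESeq2 and between 0 and 0 over left-out libraries, and for the interaction 104 with DESeq2 and between 0 and 0. The 96 abundant genes with an unadjusted p under 0.05 became 35 at a limit of 50 CPM, 140 at 10 CPM, and 80 to 152 when 1 library was left out. The 17 abundant genes without overlap became 33 to 67 when 1 library was left out and 104 without both replicates 5. Same-numbered libraries were each other's closest match only for replicates 5 (correlations of same-numbered deviations 0.10, 0.03, −0.20, 0.17 and 0.68). These carry the library numbers 58 in WT LPS and 60 in APP LPS. The replicate block gave 0 called genes and 135 abundant genes with an unadjusted p under 0.05. Of 1498 alternative values for 80 named genes 1439 kept direction and side of the threshold, 10 passed it and 49 in 18 genes changed sign; the cause was not tested. With limma voom the log2 differences were −0.01 for Tnf, −0.10 for Csf1r, −0.29 for Bace1 and −0.83 for Tmem119. With the replicate block they were −0.02 for Tnf, −0.08 for Csf1r, −0.26 for Fdft1, −0.04 for Hmgcs1, −0.32 for Bace1 and −0.49 for Tmem119. With the Ddx3y covariate they were −0.10 for Il6, 0.00 for Csf1r and −0.20 for Bace1, and without both replicates 5 −0.03 for Col1a2. Summing families gave 0.10 in place of Ugt1a6a and −0.24 in place of Srp54c. Over left-out libraries the ranges were −0.20 to 0.03 for App, −0.06 to 0.38 for Psenen, −0.30 to 0.04 for Adam17, −0.14 to 0.25 for Tnf, −0.47 to 0.95 for Il6, −0.41 to 0.10 for Tyrobp, −0.43 to 0.05 for C1qa, −0.96 to 0.20 for Cx3cr1 and −0.11 to 0.25 for Csf1r. They were −0.79 to 0.97 for Fdft1, −0.51 to 0.68 for Hmgcs1, −0.13 to 1.32 for Top2a, −0.30 to 1.23 for Col1a2, −0.59 to 1.97 for Slc1a2, −0.47 to 0.33 for Bace1 and −0.58 to 0.49 for Tmem119. All 16 lead genes kept their direction in 160 values with 1 library left out. They had been picked for their small p in these same libraries, so this is no separate check. Family sums and list medians without a library were chosen after seeing the data.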
